A study of Mus musculus with 9 samples.

Results

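Trim16, 2210407C18Rik, Galnt10 and Hand1 are 4 genes on mouse chromosome 11, the chromosome that also carries Shmt1, the gene altered in these mice. They were taken as genes lying 36 to 93 places from Shmt1, counted over protein-coding genes, whose signal differed by Shmt1 genotype. They are not all such genes, since others in that span, given below, also had mutant arrays apart from wild-type. On the array they are read by 7 of the 22626 probe sets that are not controls, and 6 of these 7 were bright enough to enter the test across the array. The 4 genes were chosen by the signal difference between genotypes in these same 9 arrays, so their levels and fold changes are a description, and no test is given for them.

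RNA came from the proximal part of the colon of 9 mice, 3 wild-type, 3 heterozygous and 3 mutant for cSHMT, the cytosolic serine hydroxymethyltransferase that Shmt1 encodes, with 1 Affymetrix array per mouse. All mice, wild-type ones included, were C57Bl/6, from stock backcrossed for 10 generations, and were 9 weeks old. All had been weaned at 3 weeks onto the AIN-93G diet without folate and choline, and the labels give the time on it as 6 weeks in one field and 5 in another. The labels name no promoter, targeting strain or kind of lesion for the mutant allele, so sequence on chromosome 11 inherited along with that allele and the allele itself cannot be told apart here. Within a group the labels speak of biological replicates; 3 arrays per group limit the precision of every value.

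The genes have unlike known roles. Trim16 encodes a tripartite motif protein that is recruited with galectin-3 to damaged endosomes and lysosomes and helps to direct them to autophagy; it has also been tied to the stability of NRF2, the regulator of antioxidant genes. Galnt10 encodes one of the polypeptide N-acetylgalactosaminyltransferases, Golgi enzymes that put the first sugar of mucin-type O-glycans onto serine or threonine. Hand1 encodes a basic helix-loop-helix transcription factor that binds E-box DNA with E-protein partners and is needed in the developing heart and placenta. 2210407C18Rik is a protein-coding gene still known by its cDNA clone name.

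Deposited signals are linear intensities, and fold changes were taken after adding 16, taking log2 and quantile normalization, so fold changes of dim probe sets come out smaller than they are. Signals of the Bacillus control probe sets, which should find no target, reached 10.9 at most, and the test left out probe sets with a mean below a signal of 75.5. Beta-actin signal at the 3' end over that at the 5' end, a ratio that rises as labelled RNA is shortened, was 4.45 to 5.02 in the arrays numbered 1 of the 3 genotypes and 2.52 to 3.75 in the other 6. Of markers fixed for the tissue, 7 of 7 on the array for absorptive colonocytes and 6 of 6 for goblet cells were bright enough to be tested. Of 8 small intestine markers 5 were on the array and 3 were tested; Apoa4 was lowest, at a mean of 15.3, and Fabp2 highest, and their summed signal was 8342.4 to 11935 per array. The altered gene was lower in mutant colons on each of its 4 probe sets, without overlap with wild-type. On Shmt1 1425177_at the 3 wild-type arrays read 564.3 to 644.1, the heterozygous ones 274.4 to 337.0 and the mutant ones 113.1 to 120.0, a mutant mean of 19.6% of wild-type. On 1425179_at and 1425178_s_at the mutant means were 52.4% and 55.5% of wild-type, and on these and on 1422198_a_at, too dim to be tested, heterozygous arrays overlapped wild-type ones.

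Across the array limma called 3 probe sets lower and none higher in mutant against wild-type colons at an adjusted p of 0.05, or 0.0221% of the 13576 tested; 521 (3.84%) had an unadjusted p under 0.05. The same number and share were called in mutant against heterozygous colons, with 1027 (7.56%) at an unadjusted p under 0.05. None was called in heterozygous against wild-type colons, with 1087 (8.01%) at an unadjusted p under 0.05; weighting the arrays raised that 0 to 134, and leaving out heterozygous 3 raised it to 3. The 3 calls of mutant against heterozygous became 5, 6 and 7 without wild-type 1, wild-type 3 and heterozygous 3, and 1 without heterozygous 1 or mutant 2. These shares are taken over all tested probe sets, the 6 tested member ones included, and no calls of the 4 genes are counted against them.

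Trim16 had the largest difference of the 4 genes. On probe set 1460629_at the 3 wild-type colons read 881.4, 866.6 and 975.3, the heterozygous ones 487.6, 649.4 and 593.7, and the mutant ones 62.4, 70.0 and 65.4. Every heterozygous array lay below every wild-type array, and every mutant array lay far below both. The means were 907.8 ± 59.0 (SD, n = 3), 576.9 ± 82.2 and 65.93 ± 3.83, so the heterozygous mean was 63.6% and the mutant mean 7.26% of wild-type. After normalization the mutant level was 11.1-fold lower than wild-type (log2 fold change -3.47, SE 0.125) and 7.07-fold lower than heterozygous, and the heterozygous level 1.57-fold lower than wild-type. Only 1 of the 13576 tested probe sets differed more between mutant and wild-type, and none did between mutant and heterozygous. The mutant signals were above the highest Bacillus control but below the 75.5 limit set for dim probe sets. The SD within genotypes was 0.113 on the log2 scale, where the median of tested probe sets was 0.173.

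The other Trim16 probe set, 1452362_at, also read lower in mutant colons, by less. It gave 217.7, 217.9 and 268.5 in wild-type, 135.3, 198.8 and 175.0 in heterozygous, and 165.9, 140.2 and 87.6 in mutant arrays. Wild-type arrays lay above all others, while mutant 1 and mutant 2 fell inside the heterozygous range. The means of 234.7 ± 29.3, 169.7 ± 32.1 and 131.2 ± 39.9 put heterozygous at 72.3% and mutant at 55.9% of wild-type (mutant log2 fold change -0.79, SE 0.236). The value rests in part on mutant 3: without it the mutant log2 fold change against wild-type was -0.49, and that against heterozygous moved from -0.33 to -0.03. Within arrays, signal on 1460629_at was 3.63 to 4.05 times that on 1452362_at in wild-type and 3.27 to 3.6 times in heterozygous colons, but 0.376 to 0.747 times in mutant colons. The 2 probe sets of Trim16 therefore differed unequally between genotypes. Where on the transcript each of them lies, and whether a sequence difference under a probe contributes, was not tested.

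**Figure D1:**
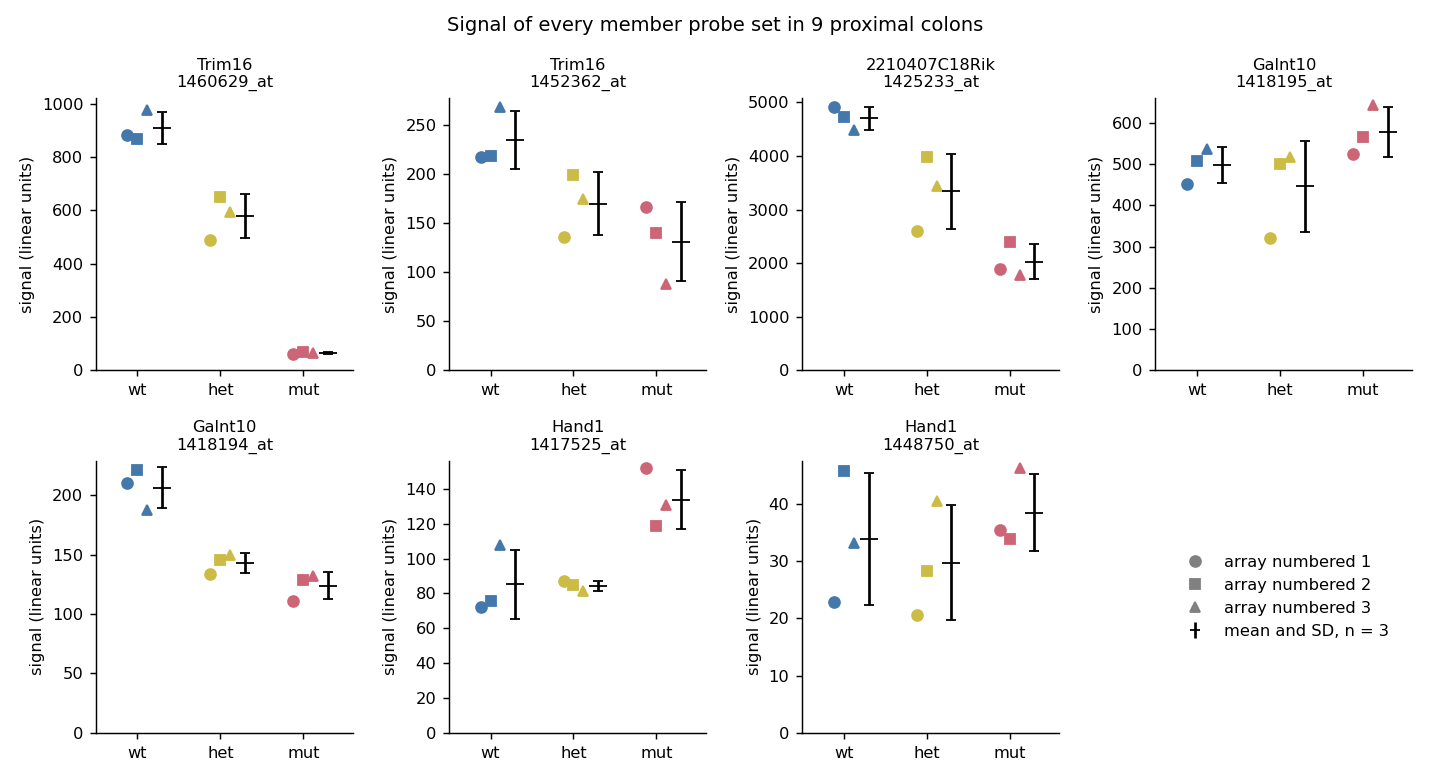
Signal (linear units, axis from 0) of each of the 7 member probe sets in wild-type (wt), heterozygous (het) and mutant (mut) colons; points are single arrays, with the array number as the symbol, and bars are mean and SD of 3. Trim16 1460629_at reads 866.6 or more in wild-type and 70.0 or less in mutant arrays, while Hand1 1417525_at is highest in the mutant arrays.

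2210407C18Rik was lower in heterozygous and lower again in mutant colons. Its single probe set, 1425233_at, read 4904.9, 4736.5 and 4476.3 in wild-type, 2598.7, 3985.6 and 3442.1 in heterozygous, and 1886.2, 2393.2 and 1783.4 in mutant colons. The 3 genotypes did not overlap, and heterozygous 1 came nearest to the mutant arrays. Means were 4706 ± 216, 3342 ± 699 and 2021 ± 326, so heterozygous colons stood at 71.0% and mutant colons at 42.9% of wild-type. The mutant level was 2.31-fold lower than wild-type (log2 fold change -1.21, SE 0.167) and 1.67-fold lower than heterozygous. For heterozygous against wild-type the log2 fold change was -0.46, and without heterozygous 1, one of the arrays with shortened RNA, it was -0.25. The heterozygous mean lay 50.8% of the way from the wild-type to the mutant mean.

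The promoter of 2210407C18Rik, whose 3 genotypes did not overlap, is shown here, as the stretch of 250 bases before the annotated start on the minus strand of chromosome 11, RefSeq on build GRCm38.p6, chr11:58613493-58613742. Capitals mark a TGACGTCA, the letters of a cyclic AMP response element, and a TATAAA, the core of a TATA box.
2210407C18Rik: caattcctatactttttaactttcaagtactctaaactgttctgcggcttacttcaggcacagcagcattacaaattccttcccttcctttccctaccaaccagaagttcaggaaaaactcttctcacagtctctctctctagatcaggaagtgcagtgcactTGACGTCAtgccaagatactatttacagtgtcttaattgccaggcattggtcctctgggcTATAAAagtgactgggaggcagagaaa
The TGACGTCA begins 87 bases before the start, and 1.55% of the 32851 mouse promoter stretches of the same length hold these letters on either strand. The TATAAA begins 27 bases before the start, and 12.4% of promoters hold one. A CANNTG, the E-box read by helix-loop-helix factors such as Hand1, begins 91 bases before the start and overlaps the TGACGTCA; 66.2% of promoters hold one. There was also a CCAAT 42 bases before the start on the opposite strand (33.8% of promoters), and neither GGGCGG, the GC box (32.7%), nor TGACNNNGC, the antioxidant response core (10.2%), was in this window. These matches are letters in a reference sequence, and binding was not measured.

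Galnt10 was read by probe sets that differed in direction. Probe set 1418194_at gave 210.4, 221.0 and 187.2 in wild-type, 133.5, 145.7 and 149.7 in heterozygous, and 111.3, 128.9 and 131.9 in mutant colons. Each genotype lay below the one before it without overlap. Its means were 206.2 ± 17.3, 143.0 ± 8.44 and 124.0 ± 11.1, with heterozygous at 69.3% and mutant at 60.2% of wild-type. The mutant level was 1.57-fold lower than wild-type (log2 fold change -0.65, SE 0.137) and the heterozygous level 1.42-fold lower. Most of the difference was thus present in heterozygous colons, whose mean lay 77.0% of the way to the mutant mean.

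On the brighter Galnt10 probe set, 1418195_at, wild-type arrays read 451.3, 506.7 and 537.6, heterozygous ones 320.4, 500.6 and 518.8, and mutant ones 524.4, 566.4 and 644.8. In deposited signal mutant 1 lay inside the wild-type range; after normalization the mutant arrays lay above all wild-type arrays. Relative to wild-type the log2 fold change was 0.20 (SE 0.141) for mutant colons and -0.18 for heterozygous ones, the latter -0.02 without heterozygous 1. Within arrays the signal on 1418195_at was 2.14 to 2.87 times that on 1418194_at in wild-type, 2.4 to 3.47 times in heterozygous and 4.39 to 4.89 times in mutant colons. So the Galnt10 probe sets, too, differed unequally, and the mutant arrays stood apart from the other 6 in this ratio.

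**Figure D2:**
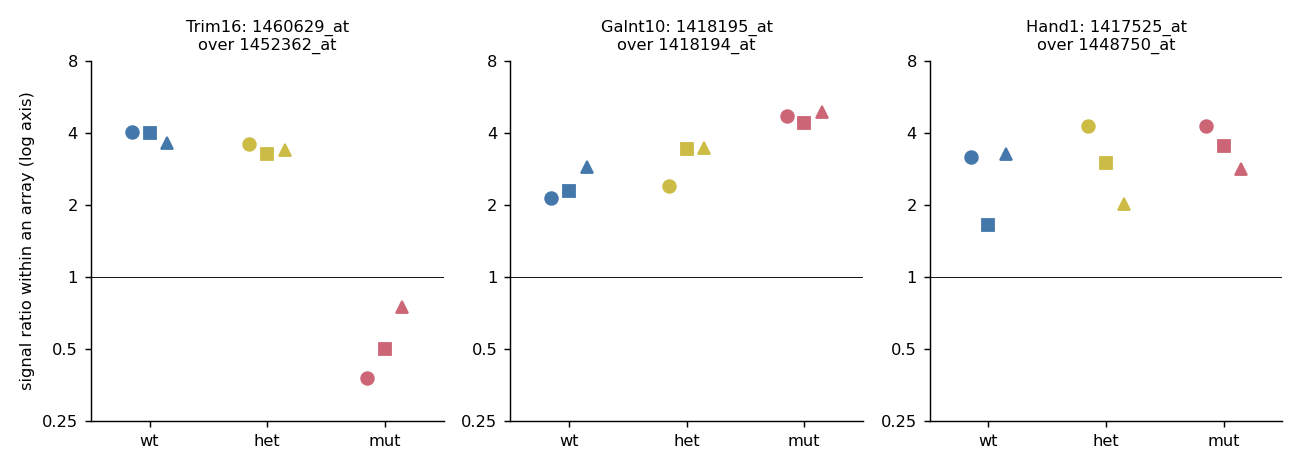
Ratio of the signals of the 2 probe sets of Trim16, Galnt10 and Hand1 within each array (log axis), by genotype, with the array number as the symbol. For Trim16 the ratio is at least 3.27 in wild-type and heterozygous and at most 0.747 in mutant arrays, for Galnt10 it is highest in mutant arrays, and for Hand1 the genotypes overlap.

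The Galnt10 promoter is printed to set it beside that of 2210407C18Rik, the other of the 4 genes with a sequence in the table used; it is the plus strand, chr11:57645192-57645441 of GRCm38.p6, from RefSeq, and capitals mark its E-box match.
Galnt10: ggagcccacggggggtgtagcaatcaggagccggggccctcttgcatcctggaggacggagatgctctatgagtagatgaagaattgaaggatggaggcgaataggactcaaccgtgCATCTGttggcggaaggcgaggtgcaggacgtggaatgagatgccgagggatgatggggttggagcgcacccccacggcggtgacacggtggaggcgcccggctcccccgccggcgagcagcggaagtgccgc
The stretches are of unlike base composition: 64.4% G or C with 20 CG dinucleotides in Galnt10, and 43.2% with 2 in 2210407C18Rik, where the median of all promoters was 52.4%. The E-box begins 133 bases before the Galnt10 start. Of the other 5 motifs searched, none was found in this stretch.

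Hand1 went the other way from Trim16 and 2210407C18Rik. On probe set 1417525_at wild-type colons read 72.3, 75.4 and 108.0, heterozygous ones 87.3, 84.7 and 81.3, and mutant ones 151.9, 118.6 and 131.0. The mutant arrays lay above the other 6, and the heterozygous arrays lay within the wild-type range. Means were 85.23 ± 19.8, 84.43 ± 3.01 and 133.8 ± 16.8, so heterozygous colons were at 99.1% and mutant colons at 157% of wild-type. The mutant level was 1.5-fold higher than wild-type (log2 fold change 0.59, SE 0.18) and 1.54-fold higher than heterozygous. Unlike the probe sets above, the heterozygous mean lay at the wild-type mean (log2 fold change -0.04, SE 0.18). These levels lie close to the 75.5 limit for dim probe sets.

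The other Hand1 probe set, 1448750_at, was too dim to be tested. It read 22.8, 45.7 and 33.1 in wild-type, 20.5, 28.2 and 40.4 in heterozygous, and 35.4, 33.8 and 46.2 in mutant colons. All 3 genotypes overlapped. Its mutant log2 fold change of 0.16 turned to -0.09 when arrays were weighted by how well they fitted.

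Taking the 6 tested probe sets together, 6 had mutant arrays that did not overlap the wild-type ones on the normalized scale (4 lower and 2 higher), against 8.42% of all tested probe sets (4.19% lower and 4.23% higher); in deposited signal it was 5. In heterozygous against wild-type it was 4, all lower, where the background was 14.7% (7.42% lower and 7.28% higher), and in mutant against heterozygous 5, of which 3 were lower, with a background of 12.4% (6.08% lower and 6.35% higher). The genes were chosen for such differences, so these counts support nothing further. The heterozygous mean lay between the others on 4 of the probe sets, at 39.3% of the way to the mutant mean for Trim16 1460629_at and 62.8% for 1452362_at, beside 50.8% for 2210407C18Rik and 77.0% for Galnt10 1418194_at. For the tested Shmt1 probe sets it lay 61.0% (1425177_at), 51.9% (1425178_s_at) and 32.1% (1425179_at) of the way.

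How far the differences extended along the chromosome was read from gene order. Trim16 lies 36 places from Shmt1 on the side of rising positions; on the other side 2210407C18Rik lies 65 places away, Hand1 91 and Galnt10 93. Without the 4 genes, 43 tested probe sets of 32 genes lie in the same span of 36 to 93 places. Their median log2 fold change was 0.02 in mutant against wild-type, and 0 were called by limma. An unadjusted limma p under 0.05 was reached by 5 (11.6%, against 3.84% over all probe sets). In 7 of the 43 the mutant and wild-type arrays did not overlap, 5 lower and 2 higher, which is 16.3% against 8.42% over all probe sets. Among the 45 probe sets 1 to 35 places from Shmt1 it was 8, or 17.8%, of which 6 were higher, and among the 77 at 94 to 150 places it was 7, or 9.09%. An unadjusted limma p under 0.05 was reached by 11.1% of the 45 and 5.19% of the 77.

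In heterozygous against wild-type colons the shares without overlap were 24.4% at 1 to 35 places, 20.9% at 36 to 93 places without the 4 genes and 5.19% at 94 to 150 places, with 14.7% over all probe sets. In mutant against heterozygous colons they were 28.9%, 11.6% and 11.7%, with 12.4% over all. None of these probe sets was called by limma in either comparison. Weighting the arrays called 2 at 1 to 35 places in heterozygous against wild-type, and 2 there in mutant against wild-type as well. At an unadjusted p under 0.05 there were 7, 7 and 3 in heterozygous against wild-type (15.6%, 16.3% and 3.9%, with 8.01% over all). In mutant against heterozygous there were 5, 3 and 5 (11.1%, 6.98% and 6.49%, with 7.56% over all). The windows hold few probe sets and no set test was made, so the shares are descriptions. The counts also depend on single arrays: in mutant against wild-type the 8 at 1 to 35 places became 19 without wild-type 1, and the 7 at 36 to 93 places became 11, 13 and 12 without wild-type 1, 2 and 3. The 7 at 94 to 150 places became 20, 13 and 12 without wild-type 1, 2 and 3, and 11 and 18 without mutant 2 and 3. In heterozygous against wild-type the 4 at 94 to 150 places became 10 to 16 without any 1 wild-type or heterozygous array, and the 9 at 36 to 93 places became 3 on the values as deposited, 15 without wild-type 3 or heterozygous 1 and 14 without heterozygous 3. The 11 at 1 to 35 places became 18 without wild-type 1. In mutant against heterozygous, leaving out heterozygous 1 moved the 13, 5 and 9 of the 3 spans to 20, 13 and 21, and leaving out mutant 3 moved them to 22, 12 and 28; without heterozygous 2 or mutant 2 the 5 became 9, and without heterozygous 2 or 3 the 9 became 20 or 15. Fewer arrays overlap less often by construction, and no fall with distance is read from these shares.

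**Figure D3:**
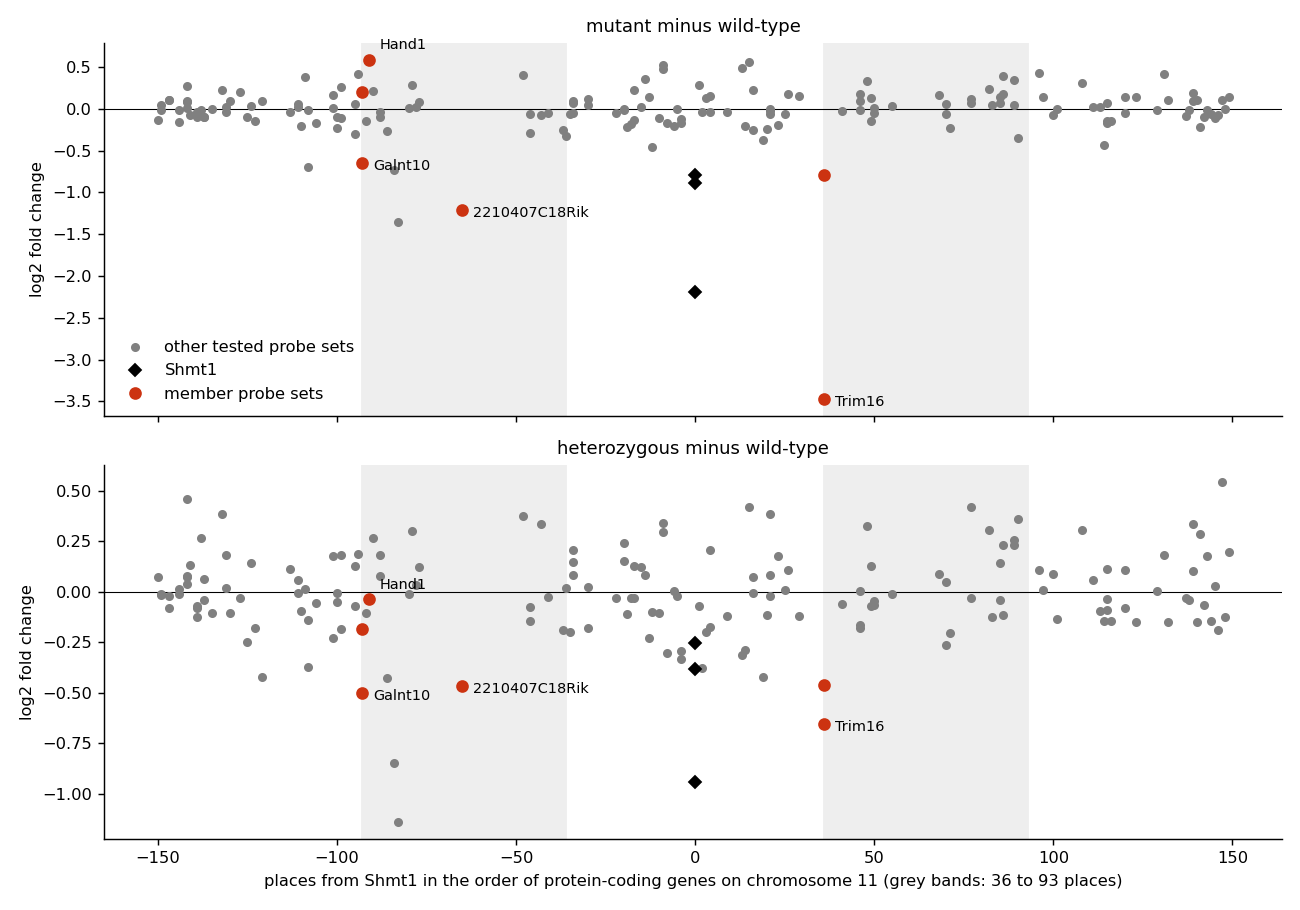
Log2 fold change of each tested probe set up to 150 places from Shmt1 (x axis: places in the order of protein-coding genes, with Shmt1 at 0), mutant minus wild-type above and heterozygous minus wild-type below, on different y scales. Red points are the members, diamonds Shmt1 and grey points other genes; in mutant colons most grey points lie between -0.5 and 0.5 while Trim16 1460629_at lies at -3.47.

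Other genes within 150 places differed less in mutant colons than Trim16 1460629_at, which follows in part from the choice of Trim16 for its difference. The largest by size with mutant arrays apart from wild-type was Irgm2, an interferon-inducible GTPase 83 places away. It read 658.6, 620.4 and 847.5 in wild-type, 88.4, 691.7 and 462.9 in heterozygous, and 480.0, 185.6 and 209.4 in mutant colons (mutant log2 fold change -1.36, limma adjusted p = 0.998). Heterozygous 2 lay inside the wild-type range, so Irgm2 varied widely within a genotype. Next were Anxa6, an annexin (108 places, log2 fold change -0.69), B9d1, a component of the ciliary transition zone (15 places, 0.55), Gid4, a subunit of a ubiquitin ligase (9 places, 0.53), and Tom1l2, an endosomal trafficking adaptor (12 places, -0.46). For Anxa6 the separation held only after normalization, since mutant 3 read 79.5 and wild-type 1 read 78.8. The other tested Anxa6 probe set had a mutant log2 fold change of -0.01, so the difference was not shared by both. Limma's adjusted p was 0.844 for Gid4 and 0.998 for Anxa6, B9d1 and Tom1l2, so none of these passed.

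The tested genes nearest to each member are given as a description. The members were chosen for their difference between genotypes, so a smaller difference in a neighbour supports nothing further. Places in brackets are counted from Shmt1, where Trim16 lies at 36 and 2210407C18Rik at 65. Genes that were not tested lie between these members and the neighbours named for them. Beside Trim16 stood Cenpv (29 places) and Pmp22, a myelin protein (41 places), with mutant log2 fold changes of 0.16 and -0.02. Pmp22 read 3715.8, 4327.7 and 3364.6 in the wild-type group against 4203.2, 3799.5 and 3208.9 in the mutants, so these arrays overlapped. Beside 2210407C18Rik stood 1810065E05Rik (77 places, 0.09) and Zfp39, a zinc finger gene (48 places, 0.41). 1810065E05Rik gave 6822.0, 5264.8 and 4914.7 in the wild-type group against 6442.2, 5895.8 and 5110.0 in the mutants. Sap30l, between Galnt10 and Hand1, had a mutant log2 fold change of -0.14, and the genes on the outer sides, Mfap3 and Larp1, had 0.41 and 0.21. By size Mfap3 thus exceeded Galnt10 1418195_at (0.20) but not Galnt10 1418194_at (-0.65). Of these 7 genes 0 were called by limma and 0 had an unadjusted p under 0.05 in mutant against wild-type (adjusted p = 0.998 for each); in heterozygous against wild-type 0 were called and 2 had an unadjusted p under 0.05, 1810065E05Rik at 0.0206 and Larp1 at 0.0439. Such a p does not show that a neighbour was unaltered.

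**Figure D4:**
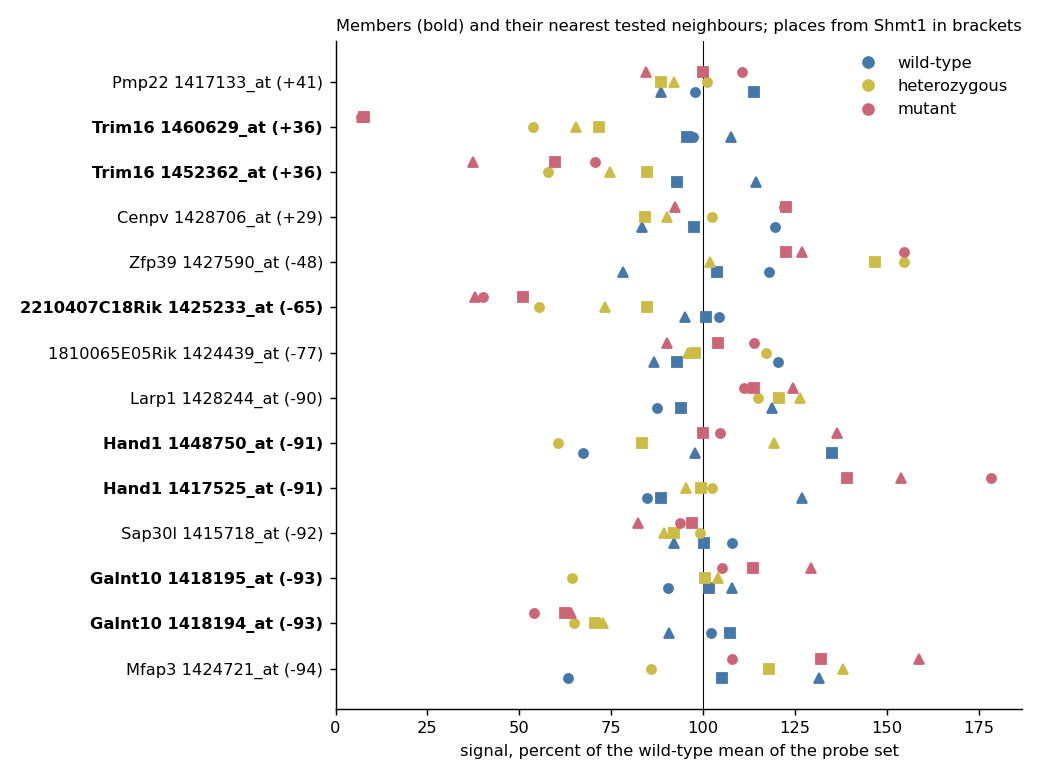
Signal of each array as a percent of the wild-type mean of its probe set (x axis from 0), for the members (bold) and the tested gene nearest to them on either side, ordered by place from Shmt1. Symbols mark array numbers (circle 1, square 2, triangle 3); mutant arrays of Trim16 1460629_at lie near 7.26% while those of Pmp22 and Cenpv spread around 100% of the wild-type mean.

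At the edges of the distance rule, Mrpl55, a mitochondrial ribosomal protein 36 places away and just inside, had a mutant log2 fold change of -0.33, with mutant arrays below all wild-type ones, as had Guk1 at 37 places (-0.25), and 2310033P09Rik, 35 places away and just outside, had -0.07. At the far edge Galnt10 at 93 places was just inside, and Mfap3 at 94 places, just outside, read 153.7, 255.3 and 319.4 in the wild-type group against 261.7, 320.7 and 385.2 in the mutants. The Mfap3 arrays overlapped, whereas Fam114a2 at 95 places had mutant arrays below all wild-type ones on 1 probe set (-0.30). The other tested Fam114a2 probe set had a mutant log2 fold change of 0.06. Limma's adjusted p in mutant against wild-type was 0.998 for Mrpl55, Guk1, 2310033P09Rik, Mfap3 and Fam114a2. Within the span of the rule, Irgm2 stood by size of the mutant difference below Trim16 1460629_at and above 2210407C18Rik and Trim16 1452362_at.

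Relatives and partners of the 4 genes were taken from 8 lists, which hold 101 tested genes. Limma called 0 of the 101 in each of the 3 comparisons; an unadjusted p under 0.05 was reached by 5 for mutant against wild-type, by 8 for heterozygous against wild-type and by 11 for mutant against heterozygous, where the shares over all tested probe sets were 3.84%, 8.01% and 7.56%. Of the TRIM family 29 genes were tested, 16 above 0 and 13 below, with a median log2 fold change of 0.016 in mutant against wild-type where all probe sets had 0.00364. The smallest p-values in that family belonged to Trim41 (log2 fold change 0.28), Trim21, an antibody receptor in the cytosol (-0.21), and Trim30a (-1.10). Trim30a read 1838.5, 876.1 and 1086.5 in the wild-type group against 1240.8, 342.9 and 396.5 in the mutants, so its arrays overlapped.

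Of the partners of Trim16 in the autophagy of damaged lysosomes 20 were tested, 6 above 0 and 14 below, with a median of -0.053. Lgals9, the glycan-binding galectin-9, read 2283.3, 1382.5 and 1485.7 in the wild-type group against 1449.7, 954.5 and 831.0 in the mutants (log2 fold change -0.67), with overlap. Gabarap, which coats autophagosomes, had -0.11, and Lamp2, a lysosomal membrane protein, had 0.15. The KEAP1-NRF2 list had 4 of 10 tested genes above 0 (median -0.028), with Hmox1, heme oxygenase, at 0.37, Keap1 at -0.14 and Nfe2l2, which encodes NRF2, at -0.09. The inflammasome list had 5 of 6 above 0 (median 0.098), with Sec22b, a vesicle fusion protein, at 0.17, Il18 at 0.29 and Il1rn, the interleukin-1 receptor antagonist, at 0.31.

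For Galnt10 the relatives were the other GALNT enzymes, of which 6 genes were tested, 5 above 0 and 1 below (median 0.063). Galnt3, Galnt4 and Galnt11 had mutant log2 fold changes of 0.08, 0.07 and 0.07, all with overlapping arrays. The enzymes that extend mucin O-glycans had 6 of 13 above 0 (median -0.018). Among them Gcnt3, which branches the glycans, read 744.8, 851.8 and 735.5 in the wild-type group against 606.3, 627.9 and 702.7 in the mutants, without overlap (-0.27), and B3gnt3 and B4galt1 had -0.28 and 0.11. The mucin list had 3 of 6 above 0 (median 0.012), with Muc3 at -0.11, Fcgbp, a mucus protein of goblet cells, at 0.09 and Muc13 at 0.05.

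For Hand1 the list of partners and relatives had 2 of 11 tested genes above 0 and 9 below, with a median of -0.076. Its smallest p-values were those of Id3 (-0.33), Id1 (-0.66) and Id2 (-0.17), inhibitors that bind E-proteins and keep them off DNA. Id1 read 786.4, 1002.5 and 1234.9 in the wild-type group against 741.4, 403.3 and 833.0 in the mutants, so that mutant 3 lay above wild-type 1 in deposited signal. Limma's adjusted p in mutant against wild-type was 0.998 for each list gene named here.

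A whole colon wall holds many cell types, and in such samples fewer cells of a type and less RNA per cell cannot be told apart. No marker of the 12 cell type lists was at 0 in mean signal. Summed signals of absorptive colonocyte markers were 23569 to 27982 in wild-type, 20755 to 26103 in heterozygous and 21814 to 29038 in mutant colons, and those of smooth muscle 32222 to 34820, 27166 to 30925 and 29371 to 36743. Adipocyte markers, 4 of 6 on the array, summed to 5144.4 to 7377.9 in wild-type, 5308.8 to 7352.0 in heterozygous and 2704.6 to 5207.6 in mutant colons, with Lep lowest at a mean of 38.2. The mutant range thus overlapped the low end of the wild-type range and lay below the heterozygous range. The 3 adipocyte markers tested were all below 0 in mutant against wild-type (median log2 fold change -0.6). Of them 1 had an unadjusted limma p under 0.05. T cell markers, 4 of 6 on the array, summed to 738.7 to 1874.2, 348.4 to 1556.3 and 404.0 to 1671.9 in the 3 genotypes, and the 3 tested were all below 0 in mutant against wild-type (median log2 fold change -0.82). Of these 3 markers, 2 had mutant arrays below all wild-type ones after normalization, and 2 had an unadjusted limma p under 0.05. Macrophage markers summed to 7204.2 to 10866, 7490.7 to 8429.8 and 6173.6 to 9248.4, with 7 of 7 below 0 (median -0.29). Limma called 0 genes of any of the 20 lists, 12 of them for cell types, in mutant against wild-type, with 9 of 160 at an unadjusted p under 0.05. The share over all tested probe sets was 3.84%. In heterozygous against wild-type it was 15 of 160, with 8.01% over all, and in mutant against heterozygous 19 of 160, with 7.56% over all. The part of these cell types in the members' values was not tested.

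Likeness across arrays was described by Pearson's r over the 9 arrays, which share the genotype groups and the RNA quality of the arrays numbered 1. Among 12487 probe sets the one most like Trim16 1460629_at was Shmt1 1425177_at (r = 0.96), followed by Tom1l2 (0.95), Ndufa6, a subunit of respiratory complex I (0.94), and Mapre2, a microtubule end-binding protein (0.92). Hk1, hexokinase (-0.96), and Stambp, an endosomal deubiquitinase (-0.94), were least like it. Once genotype means were taken out, r with Shmt1 1425177_at was 0.04 for Trim16 1460629_at and 0.51 for Trim16 1452362_at. Isl1, Tmem229b and Paip2 had the highest r with Trim16 1460629_at in those deviations, 0.94 each.

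For 2210407C18Rik the most alike were Ndufa6 (0.95), the ribosomal protein gene Rps10 (0.94), Vim, an intermediate filament (0.93), and Relb, an NF-kappaB subunit (0.92), and the least alike Nol11 (-0.96) and Srsf1, a splicing factor (-0.93). In deviations from genotype means the highest were Ogt (0.98), Eef1akmt1 (0.98) and Cript (0.96). For Galnt10 1418194_at they were Capn8 (0.93), Shmt1 1425178_s_at, Lrpap1 and Crim1 (0.91 each), against Fblim1 (-0.94) and Nmt1 (-0.93), and in deviations Glmn and Ampd3 (0.99 each) and Psmf1 (0.98). For Hand1 1417525_at they were Exoc4, an exocyst subunit (0.95), and Rasl2-9, Cox7a1 and Ecd (0.93 each), against Nrg4, a growth factor of brown fat, and Car3, a carbonic anhydrase abundant in fat (-0.96 each). In deviations Exoc4 (0.98), Col4a5 (0.96) and Frrs1 (0.95) were highest for Hand1. These genes were picked out of all tested probe sets, so high values arise in any such ranking.

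Among the members, Trim16 1460629_at and 2210407C18Rik had r = 0.91 over the arrays and 0.65 in deviations. The pair of Trim16 probe sets had 0.71 and 0.79, while the pair for Galnt10 had -0.24 and -0.30 and that for Hand1 0.27 and -0.47. By r, probe sets of 1 gene were thus alike for Trim16 and not for Galnt10 or Hand1, though the Trim16 pair differed unequally in size between genotypes. Hand1 1448750_at, at 20.5 to 46.2, was too dim to be tested, which limits the r of that pair.

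**Figure D5:**
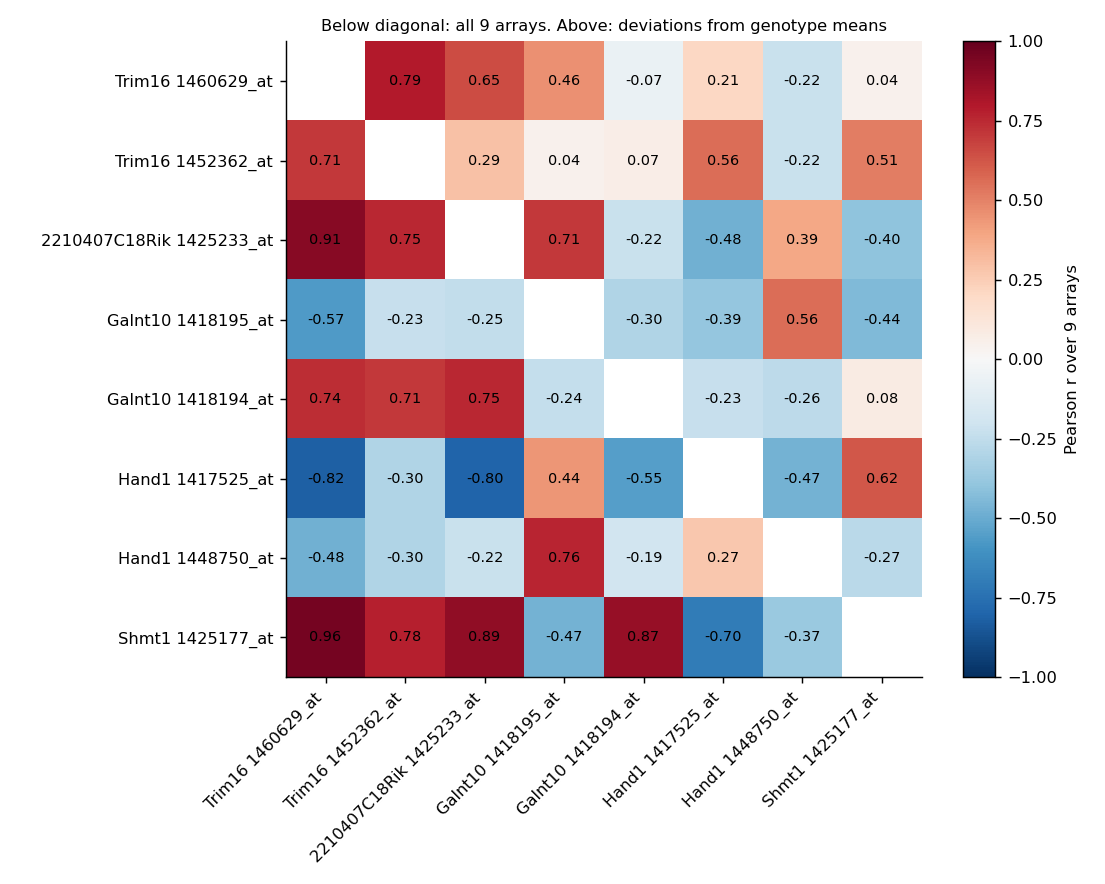
Pearson's r between the member probe sets and Shmt1 1425177_at over the 9 arrays (below the diagonal) and of deviations from genotype means (above it); colour gives r from -1 to 1. Trim16 1460629_at and Shmt1 stand at 0.96 over the arrays and at 0.04 in the deviations.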

How the data were processed

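The values deposited by the authors are linear intensities, 1 signal per probe set and array. The submitters' processing notes name GCOS; its version was not given in the sources used here. About 50 ng of RNA per colon was amplified before labelling, per the labels. After leaving out 64 control probe sets of 22690, signals were increased by 16, taken to log2 and quantile normalized, because array medians of log2 signal spread over 0.294. Probe sets with a mean under the 40th percentile were left out, which kept 13576. Limma 3.58.1 in R 4.3.3 (lmFit, eBayes with trend) fitted all 9 arrays at once; probe sets were called at 0.05 after Benjamini-Hochberg adjustment, in 3 comparisons. These p-values rest on the spread between mice within genotypes, pooled over the 3 genotypes and moderated across probe sets by eBayes. Each genotype had 3 mice.

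Gene names came from the platform annotation, which can be old; 20380 probe sets have 1 symbol, 691 several and 1555 none. Gene order came from RefSeq on GRCm38.p6; the array names no build. Promoters matched 2 of the 4 members by symbol; motifs were searched on both strands.

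The members and lists were chosen with earlier results of these data known. Named genes were Shmt1, all member probe sets, up to 3 genes per list by smallest p, the nearest tested neighbours, up to 5 other genes within 150 places by size whose arrays did not overlap, and the ends of each likeness ranking (4 highest, 2 lowest, 3 highest in deviations).

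The test was tried on simulated data for mutant against wild-type over 13576 probe sets, with 50 changed at each of 1.5-, 2-, 4- and 8-fold. It recovered 50% of those changed 1.5-fold, 74% at 2-fold and 100% at 4-fold and 8-fold, with 22 false calls among the unchanged. The adjusted p depends on how many probe sets change, so these shares do not carry over to a comparison with 3 calls. Other settings were 20, 9 of them leaving out 1 array, and 1 more was added after seeing the data, without the arrays numbered 1. Figures were drawn with matplotlib 3.10.9 in Python 3.11.15.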

Additional observations from a re-analysis of the deposited data

How the results depend on the processing

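The mutant against wild-type direction of each tested member probe set held in all 21 alternatives; Hand1 1448750_at turned with array weights, and Hand1 1417525_at in heterozygous against wild-type kept its sign in 17 of 21. Trim16 1460629_at moved from -3.47 to -3.74 when 1 was added to the signals and to -2.89 when 64 was, and Galnt10 1418194_at from -0.65 to -0.51 with 64, as a larger added value shrinks fold changes by construction. Leaving out single arrays gave -3.53 to -3.42 for Trim16 1460629_at, -1.03 to -0.49 for Trim16 1452362_at, -1.34 to -1.13 for 2210407C18Rik, -0.76 to -0.55 for Galnt10 1418194_at and 0.43 to 0.69 for Hand1 1417525_at.

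The 3 calls in mutant against wild-type became 9 with array weights, 9 without the arrays numbered 1 (added after seeing the data) and 2 to 4 without single arrays. The 0 in heterozygous against wild-type became 134 with array weights, 2 of them list genes, and 0 to 3 without single arrays. The 3 in mutant against heterozygous became 5 with only those genotypes fitted and 1 to 7 without single arrays. The cause was not tested. With the replicate number as a block the counts were 5 in mutant against wild-type, 0 in heterozygous against wild-type and 8 in mutant against heterozygous; deviations of same-numbered arrays correlated at -0.05894 to 0.4633 over 9 pairs and those of other arrays of different genotypes at -0.5065 to 0.2749 over 18, and since not every same-numbered pair was over 0.1 the numbers were not taken as pairing the mice. Actin 3' over 5' signal did go with the number, at 4.45 to 5.02 in arrays numbered 1, 3.05 to 3.75 in those numbered 2 and 2.52 to 2.73 in those numbered 3; its part in the values was not tested.

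Window counts of arrays without overlap in mutant against wild-type were 8, 7 and 7 at 1 to 35, 36 to 93 and 94 to 150 places. They were 3 at 1 to 35 and 4 at 94 to 150 places with the 60th percentile filter, 11 at 94 to 150 places with no filter and 4 there as deposited. Without single arrays they were 8 to 19, 7 to 13 and 7 to 20, and without the arrays numbered 1 they were 22, 14 and 26, with 1 called at 36 to 93 places. Signal over background limits Hand1 most, whose 1448750_at lay below the filter.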

Other observations

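Igtp, a GTPase 84 places from Shmt1 and chosen after its values were seen, averaged 1473 in the wild-type group against 946.7 in the mutants (log2 fold change -0.73), and its arrays overlapped. Irgm2 was lowest of the 9 arrays in heterozygous 1, at 88.4.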
